A study of Mus musculus with 6 samples.

Results

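The Hox genes of the a, b, c and d clusters were examined in mouse skin, without Hoxc13, a regulator of the hair shaft. A gene was a member where a probe set, the group of short probes that reports 1 transcript, carried its symbol and no other. Of 18193 genes with such a probe set, 32 were members: 9 of the a cluster, 9 of the b cluster, 6 of the c cluster and 8 of the d cluster. Hox genes with no probe set of their own were not analysed here. For a gene with more than 1 such probe set, the brightest by its mean over all 6 arrays was taken.

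Skin RNA of 3 wild-type C57BL/6 samples was compared with that of 3 knock-in samples, which the labels give the genotype KA, the source name KAB6 and the same C57BL/6 background. The labels name neither the altered gene nor the age, sex, treatment or body site of the skin, and nothing in them tells whether each sample is a separate animal. The p-values therefore reflect the spread among these 6 samples and no more. The body site matters for this gene family in particular, since Hox levels in skin differ along the body, and with no site given, site and genotype cannot be told apart. All 3 wild-type arrays carried signal of the Y-linked gene Eif2s3y (639 to 721, against 4.43 to 5.45 in knock-in), and all 3 knock-in arrays carried Xist (3442 to 4005, against 27.8 to 32.5 in wild-type), so sex and genotype cannot be told apart either, in any result here.

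Hox proteins are transcription factors that bind DNA through a homeodomain and tell cells of the embryo where they lie along the body axis. Their genes sit in clusters whose order matches the order of their use: low paralog numbers act towards the head, high numbers towards the tail and the ends of the limbs. In adult skin, dermal fibroblasts keep a Hox pattern that differs with the site they come from. Hox proteins bind DNA together with partners of the Pbx, Meis and Pknox families. Polycomb proteins keep silent Hox genes silent, Trithorax proteins keep active ones active, and retinoic acid induces genes of low paralog number.

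Values are MAS5 signals, which are linear intensities in arbitrary units, and a difference is the mean of log2(signal + 16) in knock-in less that in wild-type, given with its standard error. The signal of a probe set depends on its own probes, so signals were compared between arrays and never between genes. Of 11670 genes brighter than the array's median on at least 3 arrays, 3636 (31.2%) passed the threshold of an adjusted p of 0.05 (limma, Benjamini-Hochberg over all genes tested), 14.8% higher and 16.3% lower in knock-in. Without wild-type replicate 3, 2394 passed. Marker genes of several cell types differed between the groups. Of 15 dermal fibroblast genes, 8 were higher and 1 lower, with a summed signal of 41970 to 53250 in wild-type and 47650 to 53790 in knock-in. All 18 hair shaft and matrix genes were lower (71670 to 92230 against 22770 to 42190). Of 11 neutrophil and macrophage genes 8 were higher (2876 to 4098 against 21550 to 32050), and 8 of 11 also in the fit with no filter described below. Some of them, Chil3 and Mmp8 among them, lay above the array median in knock-in alone, and 3 were called where all 6 arrays had to exceed the median. Of 7 endothelial genes 6 were higher (585 to 798 against 1544 to 1763), and of 12 skeletal muscle genes 6 were lower (47200 to 71420 against 29450 to 51800). Of 10 keratinocyte genes past the filter, 2 were higher and 3 lower (44430 to 50270 against 43030 to 55570 over 11 genes). The part of these shifts in the Hox results was not tested, and in whole skin fewer cells of a type and less RNA per cell cannot be told apart.

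Most Hox genes either stayed below the array median on every array or had signals that differed little between the groups. The array medians ran from 37.7 to 45.85. Of the 32 genes, 13 lay above the median on all 6 arrays and 16 on none. The filter kept 14: Hoxa5, Hoxa7, Hoxa9, Hoxb2, Hoxb3, Hoxb4, Hoxb6, Hoxc4, Hoxc5, Hoxc6, Hoxc8, Hoxc9, Hoxd8 and Hoxd9. Just inside it, Hoxb4 exceeded the median on 4 arrays, all 3 wild-type ones among them. Just outside it, Hoxa3 and Hoxd10 did so on 1 array each. None of the 9 genes of paralog numbers 10 to 13 passed the filter, and their highest signal on any array was 46.8, that of Hoxd10 in knock-in replicate 2.

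**Figure D1:**
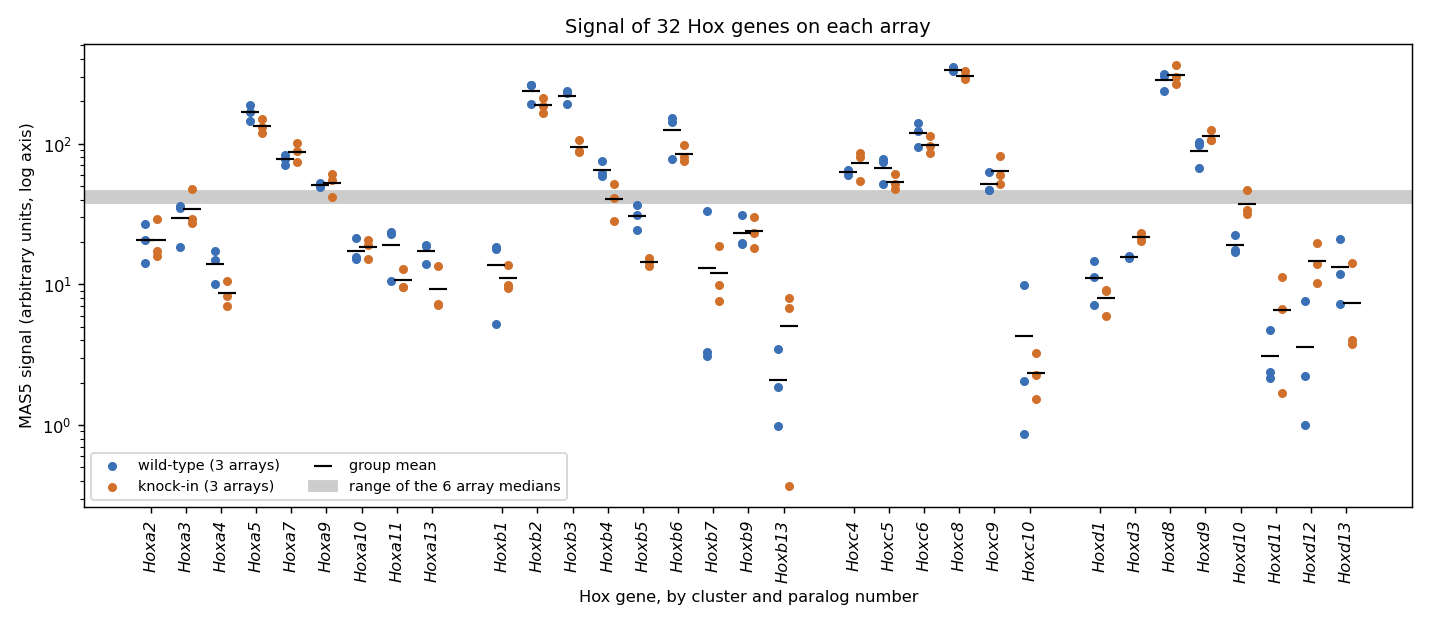
Signal of each of the 32 Hox genes on each of the 6 arrays (log axis, arbitrary units), ordered by cluster and paralog number, with wild-type in blue, knock-in in orange and group means as black bars. The grey band spans the array medians of 37.7 to 45.85. The wild-type and knock-in points of Hoxb3, Hoxb4 and Hoxb5 are separate, with knock-in lower, while those of most genes outside the b cluster overlap.

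Of the 14 Hox genes past the filter, 1 fell, 0 rose and 13 did not pass (limma), where 31.2% of all genes tested passed. At an unadjusted p under 0.05 there were 2, Hoxb3 and Hoxb4. The median log2 difference of the 14 was -0.18, against -0.02 over all genes tested. In a fit of all 18193 genes with no filter, made because so many Hox genes were dim, 2 of 32 rose and 2 fell, where 9.18% of all genes rose and 9.92% fell (19.1% in all). The median of the 32 was -0.05 and that of all genes -0.02. The groups did not overlap for 4 Hox genes that were higher in knock-in and 4 that were lower, where 16.9% of all genes lay higher without overlap and 20% lower (36.8% in all). Among the 14 past the filter, Hoxb3 and Hoxb4 lay lower and Hoxd9 higher without overlap, where 47.1% of genes past the filter did so (22% higher, 25.1% lower). None of these shares of Hox genes exceeded the share among all genes.

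**Figure D2:**
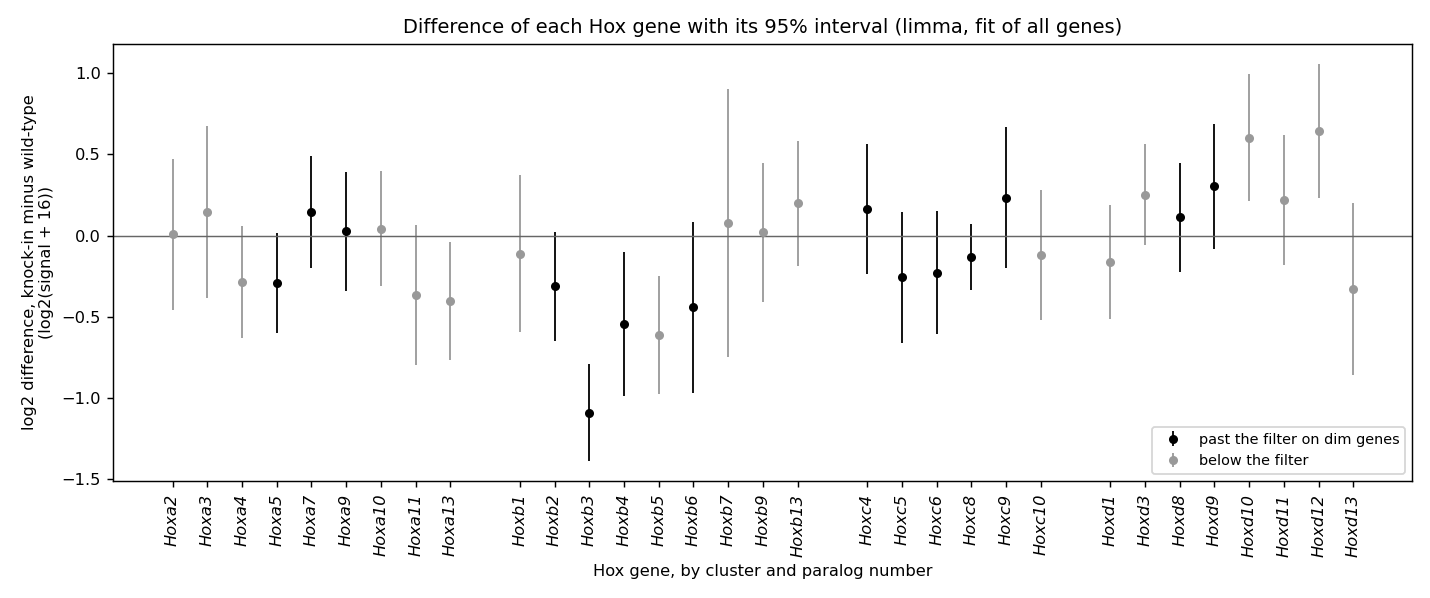
Log2 difference (knock-in minus wild-type) of each Hox gene with its 95% interval, from the limma fit of all genes with no filter. Black points are the 14 genes past the filter on dim genes and grey points the 18 below it. Hoxb3 lies lowest, at -1.09, and the grey points of Hoxd10 and Hoxd12 lie highest, at 0.60 and 0.65.

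Within the b cluster, Hoxb3 was the gene that changed in both fits. Hoxb3, a gene of hindbrain and pharyngeal arch patterning, gave signals of 237, 190.3 and 229 on the wild-type arrays and 87.5, 106 and 88.8 on the knock-in arrays (probe set 1456229_at). Every knock-in value lay below every wild-type value, and the means were 219 ± 25.1 and 94.2 ± 10.5 (SD, n = 3 per group). Hoxb3 fell by 1.09 ± 0.13 on the log2 scale (limma, adjusted p = 0.000532, 95% interval -1.38 to -0.80). It passed under all 18 alternatives, with log2 differences from -1.21 to -0.84 and adjusted p from 0.000249 to 0.00608. Its other probe set, 1427605_at, gave 56.7, 51.1 and 54.75 in wild-type and 35.7, 30.5 and 25.7 in knock-in, again without overlap. That probe set had a difference of -0.59 ± 0.16 (adjusted p = 0.0429 with each probe set tested on its own, where 13.8% of all probe sets passed, 6.01% higher and 7.81% lower).

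Hoxb4 and Hoxb5, which follow Hoxb3 in paralog number, had lower mean signals in knock-in. Hoxb4 did not pass the threshold, and Hoxb5 was too dim for the filter and was tested in the fit of all genes. Hoxb4, known for its effect on the growth of blood stem cells, gave 58.85, 61.5 and 75.4 in wild-type and 40.85, 51.8 and 28.3 in knock-in. The groups did not overlap, and the difference was -0.55 ± 0.19 (adjusted p = 0.0549, and from 0.0255 to 0.178 over 17 alternatives, 4 of which passed). Its second probe set, 1451761_at, gave 33.6 to 38.3 in wild-type and 19.1 to 31.35 in knock-in, without overlap (-0.33 ± 0.18, adjusted p = 0.264 with each probe set tested on its own). Hoxb5, a gene of the developing gut nerves and vessels, was below the median on all arrays, with 24.2, 31.2 and 36.7 in wild-type and 13.5, 15.3 and 14.3 in knock-in. The 3 knock-in signals were close together and all below the lowest wild-type one. In the fit with no filter it fell by 0.61 ± 0.16 (adjusted p = 0.0309). That call was lost without wild-type replicate 2 (0.0736) or 3 (0.105) and without knock-in replicate 1 (0.0899), 2 (0.0669) or 3 (0.0881).

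Hoxb2 and Hoxb6, at the ends of this stretch, overlapped between the groups. Hoxb2, which patterns the hindbrain, gave 261, 192 and 262.5 in wild-type and 166, 185 and 212 in knock-in (-0.31 ± 0.15, adjusted p = 0.137). Hoxb6 gave 153, 77.7 and 142 in wild-type and 74.7, 97.8 and 80.4 in knock-in (-0.44 ± 0.22, adjusted p = 0.164). Wild-type replicate 2 was the lowest wild-type array for both. Without it Hoxb2 (-0.45, limma adjusted p = 0.0356) and Hoxb6 (-0.71, adjusted p = 0.0108) passed. Hoxb2 passed under that 1 of 18 alternatives and Hoxb6 under that 1 of 17. Without wild-type replicate 1, Hoxb2 had -0.245 (adjusted p = 0.291) and Hoxb6 -0.29 (0.387). Without wild-type replicate 3, they had -0.24 (0.344) and -0.33 (0.396). All 5 genes from Hoxb2 to Hoxb6 had negative differences, -0.31 to -1.09. The bounds of this stretch were set after the values were seen, so the shared sign tests nothing about it. Hoxb2, Hoxb3, Hoxb4 and Hoxb6 kept that sign under quantile normalization and median centring. Median centring moves all genes alike and by too little to turn these signs. The b cluster genes outside that stretch were dim. Hoxb1 had group means of 13.8 and 11.02, Hoxb7 13.2 and 12.05, Hoxb9 23.35 and 23.85, and Hoxb13, a gene of the tail end of the body, 2.10 and 5.04. Each overlapped between the groups, and none passed.

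Hoxb5os, a non-coding RNA whose gene overlaps Hoxb5 and Hoxb6 in the RefSeq table, gave 248, 180.2 and 176 in wild-type and 48.3, 58.6 and 45.75 in knock-in. Every knock-in signal lay below every wild-type signal. It fell by 1.69 ± 0.16 on the log2 scale (adjusted p = 0.000175) and passed under all 18 alternatives. Hoxd3os1, which overlaps Hoxd3, gave 75.3, 119.6 and 84.0 in wild-type and 68.4, 63.1 and 30.7 in knock-in. The groups did not overlap, and the difference of -0.66 ± 0.25 did not pass (adjusted p = 0.0744). Hoxa11os was dim, with means of 2.97 and 6.855. The gene spans of Hoxb3 and Hoxb4 also overlap, and the table does not tell which transcript of an overlapping pair a probe set reads.

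**Figure D3:**
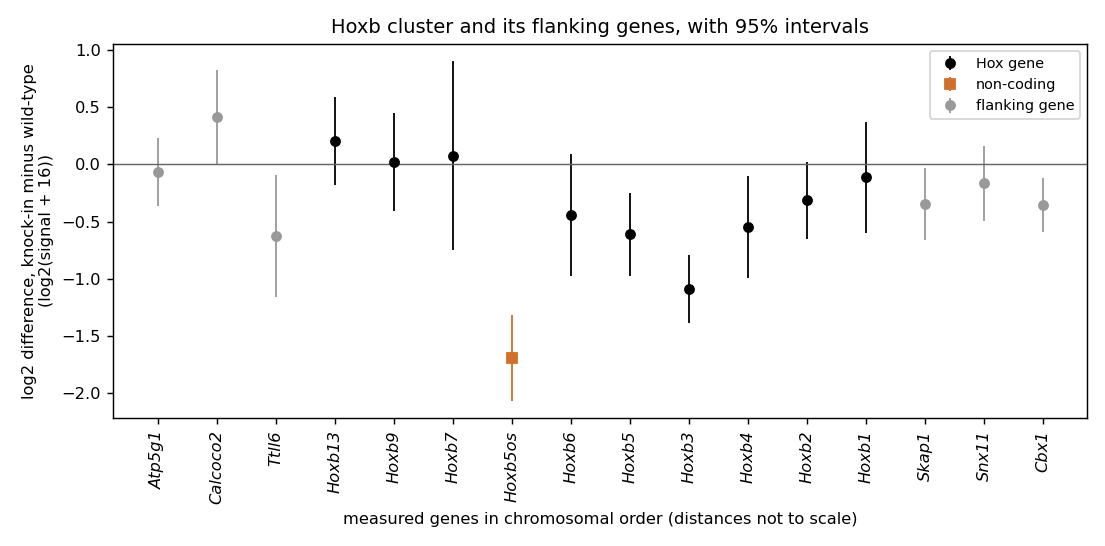
Log2 difference (knock-in minus wild-type, with 95% intervals, fit with no filter) of the measured genes of the Hoxb cluster. The 3 nearest measured genes on either side are also shown. Genes stand in order of their lower chromosome coordinate, not to scale, and the spans of Hoxb3 and Hoxb4 overlap. Black circles are Hox genes, the orange square is the non-coding Hoxb5os and grey circles are flanking genes. Hoxb5os (-1.69) and Hoxb3 (-1.09) lie lowest, and Hoxb13, Hoxb9 and Hoxb7 lie between 0.02 and 0.20.

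The promoters of the Hox genes nearest to these changes are shown where the RefSeq promoter table (GRCm38.p6) holds them, which it does for 19 of the 32 genes. Of Hoxb2 to Hoxb6 it holds Hoxb4, and of the genes that rose in the fit with no filter it holds Hoxd10 and Hoxd12. The 250 bases before the transcription start are given 5′ to 3′, all on the + strand, at chr11:96318017-96318266 for Hoxb4, chr2:74691641-74691890 for Hoxd10 and chr2:74674763-74675012 for Hoxd12. Capitals mark matches on either strand to CCAAT, the box bound by NF-Y, or CACGTG, the E-box.
Hoxb4: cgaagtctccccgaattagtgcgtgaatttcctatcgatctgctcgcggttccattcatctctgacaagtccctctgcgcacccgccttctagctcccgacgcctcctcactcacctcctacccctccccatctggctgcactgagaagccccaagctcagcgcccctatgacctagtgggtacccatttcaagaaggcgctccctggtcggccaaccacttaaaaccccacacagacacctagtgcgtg
Hoxd10: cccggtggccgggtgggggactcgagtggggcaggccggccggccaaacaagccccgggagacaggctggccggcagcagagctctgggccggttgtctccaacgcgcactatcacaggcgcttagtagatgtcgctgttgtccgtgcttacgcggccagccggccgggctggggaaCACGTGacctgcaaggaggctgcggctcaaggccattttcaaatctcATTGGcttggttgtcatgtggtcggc
Hoxd12: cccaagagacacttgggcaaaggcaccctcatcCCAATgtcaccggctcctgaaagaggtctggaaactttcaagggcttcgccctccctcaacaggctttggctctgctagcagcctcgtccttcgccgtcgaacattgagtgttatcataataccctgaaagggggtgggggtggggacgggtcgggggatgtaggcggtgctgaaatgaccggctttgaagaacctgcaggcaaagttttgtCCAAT
CCAAT was found once upstream of Hoxd10, in 2 places upstream of Hoxd12 and not in the Hoxb4 window, where 33.8% of all 32851 promoter windows of this length held it. CACGTG was found upstream of Hoxd10 alone among these, against 6.02% of all windows. TGACAG, a sequence bound by Meis proteins, and TGATTNAT, a joint Pbx and Hox sequence, were searched on both strands without a match in these 3 windows. They occur in 15.9% and 2.82% of all windows. The matches describe letters only.

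The a cluster genes past the filter were those of its middle, and none passed the threshold. Hoxa5, which patterns the neck and upper chest and the lung, gave 144, 169 and 187 in wild-type and 149, 132 and 119 in knock-in. The lowest wild-type array lay below the highest knock-in array, and the difference was -0.29 ± 0.13 (adjusted p = 0.129). Its second probe set had means of 94.15 and 95.5 and a difference of 0.03. Hoxa7, a gene of the trunk, gave 78.2, 83.5 and 70.8 in wild-type and 88.3, 73.5 and 101 in knock-in, a difference of 0.14 ± 0.14 (adjusted p = 0.478). Hoxa9 had means of 51.2 ± 1.87 and 52.9 ± 9.79 (SD, n = 3), a difference of 0.03 ± 0.15 with a 95% interval from -0.32 to 0.37.

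The remaining a cluster genes were dim in both groups. Hoxa2, Hoxa3, Hoxa4, Hoxa10 and Hoxa11 overlapped between the groups, with group means from 8.61 to 34.5. Hoxa13, which patterns the digits and the genital region, gave 18.7, 14.0 and 19.1 in wild-type and 7.19, 7.20 and 13.5 in knock-in. The groups did not overlap, and the difference of -0.40 ± 0.16 did not pass in the fit with no filter (adjusted p = 0.120). The 3 further probe sets of Hoxa3 had differences of -0.10, -0.27 and -0.29, opposite in sign to the one that stood for it (0.14), and the second of Hoxa4 had 0.31 against -0.28.

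The c cluster had 5 of 6 genes past the filter, all overlapping between the groups. Hoxc8, which patterns the thorax and the motor nerves of the forelimb, gave 332, 326 and 348.5 in wild-type and 288, 326 and 300.2 in knock-in. The lowest wild-type and the highest knock-in signal were both near 326, and the difference was -0.13 ± 0.09 (adjusted p = 0.307). With a 95% interval from -0.35 to 0.08, this was the tightest estimate among the 14 genes. Hoxc6, a gene of the upper thorax, gave 94.99, 122 and 139 in wild-type and 96.65, 113 and 85.6 in knock-in (-0.23 ± 0.16, adjusted p = 0.307). A second probe set of Hoxc6, 1427361_at, gave 104 to 121 in wild-type and 84.15 to 89.6 in knock-in, without overlap (-0.30 ± 0.12, adjusted p = 0.148 with each probe set tested on its own). Hoxc4, Hoxc5 and Hoxc9 had differences of 0.16 ± 0.17, -0.26 ± 0.17 and 0.23 ± 0.18, none of which passed. Hoxc10, of the lumbar and hindlimb region, had means of 4.29 and 2.35. Hoxc13, left out of the set, lies at the end of this cluster and fell from 563 ± 158 to 155 ± 65.3 (SD, n = 3; log2 difference -1.78 ± 0.28, adjusted p = 0.00229), as did the hair genes above.

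In the d cluster the 2 genes past the filter did not pass the threshold. Hoxd8 gave 311, 305 and 236 in wild-type and 299, 362 and 264 in knock-in (0.11 ± 0.15, adjusted p = 0.599), and its second probe set had a difference of -0.29. Hoxd9 gave 67.3, 98.3 and 102 in wild-type and 106, 125 and 107 in knock-in. The Hoxd9 groups did not overlap, and the difference was 0.30 ± 0.16 (adjusted p = 0.185, 95% interval -0.06 to 0.67).

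Among the dim d cluster genes, Hoxd10 and Hoxd12 were higher in knock-in. Hoxd10, which patterns the limb and the lumbar cord, gave 16.9, 22.3 and 17.65 in wild-type and 33.6, 46.8 and 31.6 in knock-in. Each knock-in signal lay above each wild-type signal, and 1 exceeded the array median. In the fit with no filter it rose by 0.60 ± 0.17 (adjusted p = 0.0420). It did not pass without any one of the 6 arrays (adjusted p from 0.0595 to 0.126). Hoxd12, a gene of the digits, gave 0.997, 2.21 and 7.57 in wild-type and 19.5, 10.3 and 13.9 in knock-in. These signals were around or under the offset of 16, and the difference was 0.65 ± 0.18 (adjusted p = 0.0393). The call was lost when wild-type replicate 1 (0.111) or 2 (0.105) was left out, and likewise for knock-in replicate 1 (0.113) or 3 (0.0973).

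The other dim d cluster genes did not pass. Hoxd3 gave 15.3 to 16.01 in wild-type and 20.4 to 23.2 in knock-in, without overlap (0.25 ± 0.14, adjusted p = 0.244). Hoxd1 and Hoxd11 overlapped between the groups, with differences of -0.16 and 0.22. Hoxd13, which patterns the digits, overlapped with means of 13.3 and 7.35. Its second probe set, 1422239_at, gave 0.866 to 1.71 in wild-type and 5.35 to 13.1 in knock-in, all under the offset, with a difference of the opposite sign (0.51 ± 0.14, adjusted p = 0.0467 with each probe set tested on its own).

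Set out by cluster, the median log2 difference was 0.01 over the 9 a cluster genes, -0.31 over the 9 b cluster genes, -0.13 over the 6 c cluster genes and 0.24 over the 8 d cluster genes. Negative differences numbered 4 of 9, 6 of 9, 4 of 6 and 2 of 8. Set out by paralog number, it was -0.11 over the 7 genes of numbers 1 to 3, -0.24 over the 12 of numbers 4 to 8 and 0.04 over the 13 of numbers 9 to 13. Differences between clusters or paralog groups were not tested. Beside Hoxb3 (-1.09), its paralogs Hoxa3 and Hoxd3 had 0.14 ± 0.23 and 0.25 ± 0.14, both from dim probe sets. Hoxb4 (-0.55) had the paralogs Hoxa4 (-0.28) and Hoxc4 (0.16), while Hoxd4 had no probe set of its own. Hoxb5 (-0.61) had Hoxa5 (-0.29) and Hoxc5 (-0.26). Hoxb6 (-0.44) had Hoxc6 (-0.23), while Hoxa6 had no probe set of its own. Further probe sets of these paralogs gave -0.10, -0.27 and -0.29 for Hoxa3, 0.31 for Hoxa4 and 0.03 for Hoxa5. Those of Hoxc5 gave -0.26 and -0.51, and those of Hoxc6 -0.30 and 0.10. Differences between paralogs were not tested. Outside the b cluster, the 10 genes past the filter had differences from -0.29 to 0.30, with adjusted p from 0.129 to 0.914 and 95% intervals that together ran from -0.64 to 0.67. Changes larger than these bounds lie outside the intervals, but smaller ones remain possible.

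The 11 Hox genes with more than 1 probe set had 15 further ones, of which 7 shared the sign of the probe set that stood for the gene. Those of Hoxb3 and Hoxb4 did so. Of the 15, 2 passed when each probe set was tested on its own, those of Hoxb3 and Hoxd13.

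The 24 measured genes nearest to the clusters, 3 on each side of each cluster, are given as background to the clusters. Of 17 past the filter, 3 rose and 3 fell, with a median of -0.07, a share close to the 31.2% called among all genes. Beside the b cluster, Cbx1, a heterochromatin protein, fell by 0.35 ± 0.11 (adjusted p = 0.0331, with 9 of 17 alternatives passing), Snx11 had -0.17 and Atp5g1 -0.07. Ttll6, Skap1 and Calcoco2 were below the filter. In the fit of all genes Ttll6 had -0.63 ± 0.23 (adjusted p = 0.0995) and Skap1 -0.34 ± 0.14 (0.123), both lower in knock-in without overlap, and Calcoco2 had 0.41 ± 0.18 (0.159). None of these passed, and 5 of the 6 genes beside the b cluster had negative differences. Beside the d cluster, Lnpk fell by 0.54 ± 0.12 (adjusted p = 0.0109) and Nfe2l2, the regulator of antioxidant genes, rose by 0.68 ± 0.10 (adjusted p = 0.00156). Beside the a cluster, Skap2 and Snx10 rose by 0.49 ± 0.10 and 0.95 ± 0.22.

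The partners of Hox proteins did not pass. Of 6 measured Pbx, Meis and Pknox genes past the filter, 0 rose and 0 fell (limma, also 0 at an unadjusted p under 0.05), with a median of -0.10. Pknox1 had a difference of -0.24 ± 0.13 (adjusted p = 0.186), Meis2 0.52 ± 0.30 (0.226) and Pbx3 0.19 ± 0.11 (0.240). Of 25 Polycomb genes, 0 rose, 3 fell and 22 did not pass, with a median of -0.16. Cbx2, a subunit that reads the Polycomb mark, fell by 0.50 ± 0.13 (adjusted p = 0.0183), Phc1 by 0.64 ± 0.19 and Phc3 by 0.33 ± 0.10. This count was 0 without wild-type replicate 3 and with the replicate block. It was 1 when knock-in replicate 1, knock-in replicate 2 or wild-type replicate 2 was left out, and 5 with quantile normalization or without shared probe sets. In the fit with no filter, 2 of 27 fell, where 19.1% of all genes passed, and Phc1 was lost (limma, adjusted p = 0.0547). The count that rose was 1 under several alternatives and 2 with the mean over probe sets. Of 10 Trithorax genes and demethylases of the Polycomb mark, 0 rose and 1 fell, with a median of -0.17. That one was Kmt2a, the methyltransferase that keeps Hox genes active, which gave means of 299 ± 17.65 and 199.5 ± 16.4 (SD, n = 3) and fell by 0.55 ± 0.10 (adjusted p = 0.00465). Kmt2a passed under all 18 alternatives. The shares called in these 3 lists lie below the 31.2% of all genes.

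Retinoic acid genes changed in both directions. Of 11 past the filter, 4 rose, 2 fell and 5 did not pass, with a median of 0.27, where 31.2% of all genes passed. In the fit with no filter, 2 of 17 rose and 1 fell, with a median of -0.11, where 19.1% of all genes passed. Without shared probe sets 2 rose. Cyp26b1, which breaks down retinoic acid, rose from 224 ± 36.4 to 596 ± 50.5 (SD, n = 3; 1.36 ± 0.13, adjusted p = 0.000212). Crabp1, which binds it in the cell and also marks the dermal papilla, rose from 173 ± 51.7 to 406 ± 97.5 (1.18 ± 0.24, adjusted p = 0.00669). The synthesis enzyme Aldh1a3 fell by 0.80 ± 0.23 and the receptor Rxrb by 0.49 ± 0.11. Without knock-in replicate 2, 2 rose. The count that fell was 1 with knock-in replicate 1, knock-in replicate 3 or wild-type replicate 1 left out. Of 8 other homeobox and T-box genes with regional expression that passed the filter, 2 rose and 0 fell, with a median of 0.26, where 31.2% of all genes passed. In the fit with no filter, 3 of 26 rose and 1 fell, with a median of 0.05. Tbx3, a T-box gene of the limb and mammary line, rose by 0.69 ± 0.17 (adjusted p = 0.0166; 0.0287 in the fit with no filter). Its wild-type signals of 22.9 to 31.9 lay below every array median, so it passed the filter through the knock-in arrays alone, and 1 gene rose where all 6 arrays had to exceed the median. Prrx1, a gene of limb and dermal mesenchyme, rose by 0.45 ± 0.12 (adjusted p = 0.0244). Tbx3 was lost with knock-in replicate 2 left out, and Prrx1 with replicate 1 or 3 of either group left out, and neither passed with the mean over probe sets. The count of genes that rose was 1 with knock-in replicate 1, knock-in replicate 2 or wild-type replicate 3 left out. Zic1 and Tbx18 had 0.51 ± 0.19 and 0.34 ± 0.14 and did not pass. Tbx4, Tbx5 and Pitx1, which mark forelimb and hindlimb, were below the filter.

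**Figure D4:**
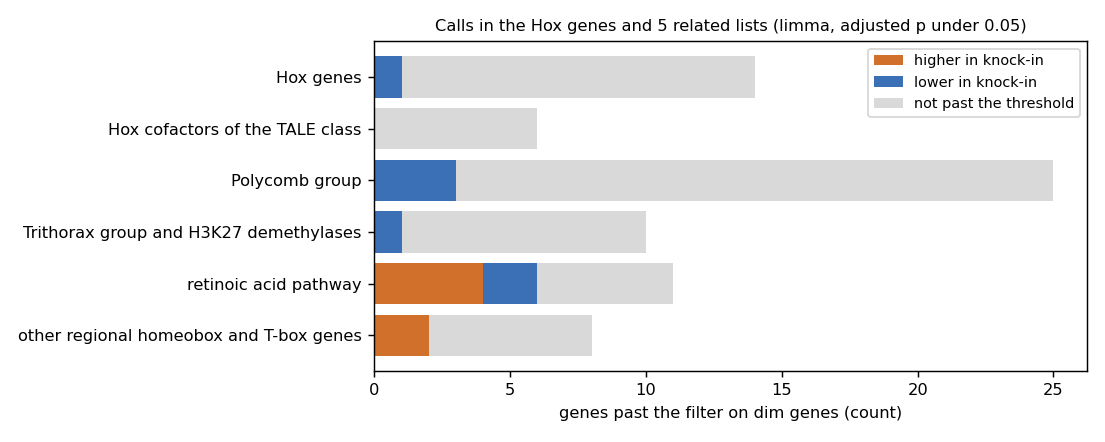
Number of genes past the filter that were higher (orange), lower (blue) or not past the threshold (grey) in the Hox genes and 5 related lists (limma, adjusted p under 0.05). The Hox bar holds 14 genes, 1 of them lower, and the retinoic acid bar 11 genes, 4 higher and 2 lower.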

How the data were processed

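Gene expression was measured on 6 one-colour arrays with biotin-labelled targets, 3 wild-type and 3 knock-in. TRIzol was used to extract total RNA, per the labels' protocols. The deposited intensity of each probe set was made by the authors with MAS5, per the submitters' processing notes, whose version is not given in the sources used here. The 2% trimmed mean of every array was 150 in the deposited table, as MAS5 scaling by 1 factor per array leaves it, and such scaling does not even out differences in spread between arrays. No further normalization was applied.

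Of 45101 probe sets, 64 controls were left out, 34945 had 1 gene symbol, 932 several and 9160 none. The symbols of 18031 of 18193 genes were matched to the RefSeq table of GRCm38.p6, and 0 changed. Coordinates are given for promoter windows alone. No detection calls were used. Genes above the array's median on at least 3 arrays entered limma 3.58.1 (R 4.3.3) on the log2(signal + 16) scale (lmFit, eBayes with a trend, two-sided). The offset of 16 understates differences of dim genes. The number of arrays limits the precision, and the median standard error was 0.13. On arrays simulated for knock-in against wild-type with 11670 genes, 28% of genes changed by 0.5 on the log2 scale were recovered. For changes of 1 and 2 it was 79% and 98%, and 4.70% of 149 calls were false. The simulation held far fewer changed genes than were called in the data, with 149 calls against 3636. The adjusted threshold depends on that share, so these percentages do not give the recovery in the data.

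The Hox set, the other lists and the tests were chosen with earlier results of these data known. Every Hox gene is named. The signal of every array is given for each Hox gene that passed in either fit, for the 2 with the highest mean in each cluster, and for a few others chosen after their values were seen. From each related list up to 4 genes with the smallest p are named. Alternatives were another offset, other filters, quantile normalization, median centring, no trend, array weights, the mean over probe sets, no shared probe sets, a replicate block and each array left out, and, chosen after the data were seen, no X- and Y-linked genes.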

Additional observations from a re-analysis of the deposited data

How the results depend on the processing

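Hoxb3 and Hoxb5os kept their direction and their call under all 18 alternatives. Over all genes, 2394 to 3367 passed with an array left out. Among the 14 Hox genes past the filter, the count that fell was 1, and 1 to 3 with an array left out. It was 2 with the mean over probe sets, without a variance trend and with array weights, where Hoxb4 joined Hoxb3. The count that rose was 0. In the fit of all 32 with no filter, 2 fell, Hoxb3 and Hoxb5, and 2 rose, Hoxd10 and Hoxd12. In that fit the 2 that rose became 1 with an offset of 1, and 0 to 1 with an array left out, and the 2 that fell became 1 to 2 with an array left out. With the replicate block 0 rose and 1 fell in that fit, and 1 fell with the filter. Over all genes, 1186 rose and 1264 fell with the block, against 1729 and 1907 without it. Under the block the calls of Hoxb5, Hoxd10 and Hoxd12 were lost (limma, adjusted p = 0.0736, 0.0735 and 0.0798). Deviations of same-numbered arrays from their group means correlated at -0.25, -0.41 and -0.02, and those of differently numbered arrays at -0.1 to 0.349. With 3 arrays per group these values are not independent. They cannot decide whether the replicate numbers pair the arrays, and the labels do not say. Signs turned for uncalled genes alone: with the mean over probe sets Hoxa3 (-0.13), Hoxa4 (0.0145), Hoxd8 (-0.0899) and Hoxd13 (0.089), without shared probe sets Hoxa4 (0.31), with an offset of 64 Hoxb7 (-0.0012), and with array weights Hoxa2 (-0.0089) and Hoxb7 (-0.0749). With an array left out, Hoxa2 ran from -0.15 to 0.13, Hoxa3 from -0.05 to 0.25, Hoxa9 from -0.0616 to 0.14, Hoxa10 from -0.0077 to 0.13, Hoxb1 from -0.34 to 0.0057, Hoxb7 from -0.15 to 0.53, Hoxb9 from -0.0903 to 0.15, Hoxc10 from -0.24 to 0.0716 and Hoxd8 from -0.0091 to 0.21. The cause of these changes was not tested. Of 589 values of single genes under alternatives, 538 kept sign and side of the threshold, but most of these belong to genes that were not called. All 19 values that lost a call were those of Hoxb5, Hoxd10 and Hoxd12. These genes passed under 10, 8 and 11 of 16 alternatives. Of the Hox genes, 16 lay below the array median on every array, and how small a change can be seen in such dim genes was not tested.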

Other observations

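Probe sets annotated to a pair of neighbouring Hox genes stood outside the set. The probe set for Hoxb8 and Hoxb7, 1452493_s_at, gave 47.4, 41.3 and 65.5 in wild-type and 52.4, 57.1 and 57.0 in knock-in, a log2 difference of 0.10 ± 0.17. Hoxb7 and Hoxb8 lie beyond Hoxb6 in the b cluster, next to the genes with lower signals. The difference of this probe set was positive, and its groups overlapped. The pair of probe sets for Hoxd4 and Hoxd3 had differences of 0.41 ± 0.21 (1450209_at) and 0.30 ± 0.20 (1421537_at), of the same sign as the probe set of Hoxd3 alone, and neither passed (limma, adjusted p = 0.244 and 0.379 with each probe set tested on its own).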
